A study of Homo sapiens with 14 samples.

Results

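The genes described here are 39 interferon-stimulated and RNA-sensing genes, chosen by name: the RNA sensors DHX58, IFIH1 and TLR3, the ligand IFNB1, the factors that drive the response, and the effector families that interferon switches on. Each was read from the array's transcript clusters (a cluster is the set of probes summarised into 1 value for a gene), and the brightest cluster was used where a gene had several. Of the 39, 38 had a cluster under their own symbol, among 18377 genes with a cluster; STAT2 had none and was not analysed here. After the lowest 40% of genes by mean level were left out as dim, 28 of the 38 were tested among 11026 genes, and the other 10 were dim: IFNB1, TLR3, IFIH1, MX1, OAS2, HERC5, BST2, IFI16, IFI44 and IFI44L.

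The study asked how Nupr1, a small stress-induced chromatin protein, and the NF-kB subunits RelA/p65 and RelB shape transcription in MiaPaCa2, an established pancreatic cancer cell line, when nutrients are withdrawn. RNA of 14 samples was hybridised to 14 whole-transcript arrays, and the deposited values are log2 levels. All 14 were transfected with an siRNA and the reagent INTERFERin, so the controls carry a scrambled siRNA (siCtrl) and no array shows untransfected cells. Starvation was by Earle's Balanced Salt Solution (EBSS), a salt solution without amino acids or growth factors.

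The arrays form 2 sets. The Nupr1 set holds 8 arrays, a time course of starvation (0, 3, 6 and 9 h) for each of siCtrl and siNupr1. The NF-kB set holds 6 arrays, siCtrl, siRelA and siRelB, each after 9 h in EBSS or in a medium labelled mock, whose composition the labels do not give. For the 0 h arrays 1 label names DMEM and another names EBSS, and 1 label of the siNupr1 array at 9 h names another siRNA than its other labels do. Each combination is 1 array, so the tests below pool arrays across siRNAs or times, except the tests of whether an siRNA difference varied with the medium, where each value is 1 array and the spread comes from the Nupr1 set. With 1 array per combination, the p-values measure how far arrays depart from the sum of the fitted siRNA and time or medium terms. They do not measure a spread between replicates. The model fitted to both sets jointly pools that departure over both sets, with 5 residual degrees of freedom. The total of 19.6 is reached by drawing on the spread of other genes. The labels do not say that the arrays came from separate cultures. The number of arrays limits the precision.

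Cells detect foreign RNA through cytosolic helicases (RIG-I, MDA5 from IFIH1, and the regulator LGP2 from DHX58) and through Toll-like receptors in endosomes. These signal through the kinases TBK1 and IKK-epsilon to the factors IRF3 and IRF7, and through NF-kB, to induce interferon. Secreted interferon then acts through JAK kinases and factors that include STAT2 and IRF9, which bind the interferon-stimulated response element (ISRE) in promoters of the effector genes. Synthetic siRNAs can trigger these sensors, depending on their sequence, length, chemistry and carrier.

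The siRNA strands are shown because they are the RNA that all these cells received, in the sense orientation given in the labels without the dTdT overhang. Capitals in siRelA mark the complement of UGUGU, a motif described as immunostimulatory, which places UGUGU on that siRNA's antisense strand. Capitals in the siRelB sequences mark a run of 15 bases that they share.

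siNupr1: ggaggacccaggacaggau
siNupr1#2: aggucgcaccaagagagaa
siRelA: gaucaauggcuACACAgg
siRelB: GGAUUUGCCGAAUUAacaa
siRelB#2: cugcGGAUUUGCCGAAUUAuu

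The sense strands are 18 to 21 bases long, and U makes up 5.3% of each Nupr1 sense strand, 16.7% of siRelA, 26.3% of siRelB and 38.1% of siRelB#2. U was not counted on the antisense strands, which the cells also received, so these shares do not rank the siRNAs by U over both strands. The labels do not say which siRNA of each pair was used on the arrays, and the control's sequence is not given in them. UGUGU was on the antisense strand of 1 of these 5 siRNAs and on no sense strand.

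Promoters of the genes were searched for the ISRE-type core, 2 GAAA blocks with any 2 bases between them (TTTC blocks on the other strand), in the window from 250 bases before to 50 after the start site (RefSeq, GRCh38.p14). Of 30 genes of the group with a promoter entry, 20 (66.7%) held it, against 3.65% of 27305 promoters. The GAS-type core TTCNNNGAA was in 10 of the 30 (33.3%), against 7.88% of promoters, and a kappaB-type core, GGG and CC with any 5 bases between them on either strand, was in 20 of the 30 (66.7%), against 57.99%. The stretches below carry the ISRE-type core in capitals with 15 bases on each side, for 3 genes that were lower after 9 h in EBSS than in mock medium and 3 that were higher.

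IFIT1 (chr10:89392492-89392544, plus strand): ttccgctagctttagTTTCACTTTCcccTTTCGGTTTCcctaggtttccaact
IFIT5 (chr10:89414508-89414588, plus strand): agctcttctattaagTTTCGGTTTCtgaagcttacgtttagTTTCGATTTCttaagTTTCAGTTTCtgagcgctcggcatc
PARP14 (chr3:122680795-122680834, plus strand): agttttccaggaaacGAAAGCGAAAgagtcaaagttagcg
ISG15 (chr1:1013369-1013414, plus strand): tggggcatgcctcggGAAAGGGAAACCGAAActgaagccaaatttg
TAP1 (chr6:32853808-32853853, minus strand): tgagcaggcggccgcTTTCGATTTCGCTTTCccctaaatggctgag
IFITM1 (chr11:313985-314058, plus strand): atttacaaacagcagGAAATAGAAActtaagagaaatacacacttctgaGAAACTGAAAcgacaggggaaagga

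Both directions thus include promoters with the core: it was in 4 of 6 genes with an entry that fell in EBSS against mock medium, in 4 of 6 that rose and in 5 of 8 tested genes that were not called. A match is a run of letters, not a measured binding site.

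The siRNAs lowered their targets. RELA read 6.56 and 6.31 with siRelA against 9.19 and 8.67 with siCtrl, RELB read 6.73 and 6.16 with siRelB against 8.41 and 7.11, and NUPR1 read 5.59 to 6.64 with siNupr1 against 6.27 to 7.49. The epithelial keratins KRT8 (12.49 to 13.01) and KRT18 (12.72 to 13.30) and the mesenchymal filament VIM (12.42 to 12.85) were high on every array, the leukocyte marker PTPRC was dim at 2.41 to 2.80, and the epithelial markers EPCAM (3.27 to 3.89) and CDH1 (4.26 to 4.83) were dim as well. CDKN2A, which this line is known to lack, still read 6.00 to 6.55, above the dim limit of 5.805, so a level just above that limit need not be expression.

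IFNB1, which encodes interferon beta, read 2.56 to 3.41 over the 14 arrays, and no array rose above the dim limit. Among interferon genes outside the 39, IFNA2, IFNE and IFNK were dim as well. The interferon lambda gene IFNL3 read 7.64 to 8.50, above the limit on all 14 arrays. IFNL1 (5.42 to 6.51) and IFNL2 (5.48 to 6.42) lay around the limit. The endosomal RNA receptor TLR3 read 3.54 to 4.31, and TLR7 (2.83 to 3.15) and TLR8 (2.76 to 3.73), receptors of single-stranded RNA that are not among the 39, were dim too. CXCL10, a chemokine that interferon induces strongly in many cells, read 2.66 to 2.94. The brightest of the group were the membrane restriction factors IFITM3, IFITM1 and IFITM2, with means of 9.83, 9.40 and 9.13, but these are close copies of each other and probes can cross between them. TAP1, a subunit of the peptide transporter that loads MHC class I, had a mean of 8.38 in 3 clusters with identical values.

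Many genes of the group were higher on all 6 NF-kB set arrays than on any of the 8 Nupr1 set arrays. This held for 15 of the 38 genes with a cluster (39.5%), against 3.82% of all 18377 genes, and 1 of the 38, IFI16, was below on all 6, against 3.52% of genes. The sets differ in experiment as well as in siRNA, time and medium, so set and experiment cannot be told apart, and these values are given as a description with no test.

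OASL, an OAS-like protein that enhances RIG-I signalling, had the widest difference between the siCtrl arrays at 9 h in EBSS. In the NF-kB set it read 9.40 (EBSS) and 8.75 (mock) with siCtrl, 9.83 and 9.02 with siRelA, and 9.54 and 9.41 with siRelB. In the Nupr1 set it read 6.34, 6.89, 7.25 and 6.87 with siCtrl at 0, 3, 6 and 9 h and 6.88, 7.35, 7.52 and 6.86 with siNupr1. The sets did not overlap, and the lowest NF-kB set array stood 1.24 above the highest Nupr1 set array on the log2 scale.

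The other OAS genes encode enzymes that make the activator of RNase L from ATP when double-stranded RNA is present, and they showed the same separation. OAS1 read 7.20 to 7.67 in the NF-kB set and 5.42 to 5.93 in the Nupr1 set. OAS3 read 6.56 to 7.15 and 5.33 to 5.99. OAS2, which is dim over all arrays, read 6.22 to 7.10 in the NF-kB set, above the dim limit on all 6, and 4.64 to 5.01 in the Nupr1 set.

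IFIT3, which binds IFIT1 and stabilises its hold on foreign RNA, read 7.01 to 8.07 in the NF-kB set and 5.56 to 5.92 in the Nupr1 set. ISG15, a ubiquitin-like modifier, read 7.49 to 8.01 against 6.25 to 6.69, and its ligase HERC5 read 5.43 to 6.54 against 4.28 to 4.88. USP18, which removes ISG15 and dampens the receptor, read 7.14 to 7.42 against 5.98 to 7.11, a gap of little width, and it shares a near-identical copy with the pseudogene USP41P. IFI6 read 8.25 to 8.85 against 6.99 to 7.28.

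Of the sensors, DHX58 and IFIH1 took part at low levels. TLR3 did not, and was dim in both sets, at 3.76 to 4.31 in the NF-kB set and 3.54 to 4.16 in the Nupr1 set. DHX58 read 6.46 to 7.53 in the NF-kB set and 5.99 to 6.38 in the Nupr1 set, and IFIH1 read 4.99 to 6.15 against 3.97 to 4.47, dim in most arrays. The remaining genes with no overlap were IRF1, ISG20, HERC6 and IFI44. HERC6 read 6.20 to 7.08 against 5.00 to 5.53, and IFI44 was dim in both sets, at 4.49 to 5.37 against 3.41 to 4.34. IRF1, a factor that both interferon and NF-kB induce, read 7.11 to 7.81 against 6.37 to 6.96, and the exonuclease ISG20 read 6.74 to 7.14 against 5.93 to 6.39.

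Not all of the group differed this way. Of the IFIT genes only IFIT3 separated. IFIT1 read 7.37 to 9.76 in the NF-kB set and 6.59 to 7.85 in the Nupr1 set. IFIT2 read 7.62 to 8.78 against 6.70 to 8.03, and IFIT5 read 5.80 to 7.31 against 5.22 to 6.85. TAP1, IFI35, PARP9, PARP14 and BST2 overlapped too. MX2, a dynamin-like restriction factor, read 6.71 to 7.69 in the NF-kB set and 6.80 to 7.83 in the Nupr1 set, so the sets overlapped throughout. The SP100 and PML nuclear body proteins also overlapped, at 6.28 to 6.76 and 6.29 to 6.94 in the NF-kB set against 6.58 to 7.01 and 6.43 to 6.81. IRF9, a DNA-binding factor of the response, read 6.31 to 6.94 against 6.06 to 6.57, IRF7 read 7.04 to 7.60 against 6.80 to 7.32, and TRIM21 read 6.65 to 7.19 against 6.14 to 6.68. The IFITM genes overlapped as well, IFITM3 narrowly, at 9.89 to 10.39 against 9.34 to 9.90. MX1 was dim in both sets, at 4.95 to 5.27 and 4.62 to 5.12, and so was IFI44L, at 3.43 to 3.66 and 3.50 to 3.79. IFI27 read 5.57 to 6.03 and 5.57 to 6.08. IFI16, a DNA sensor, was dim throughout and lower in the NF-kB set, at 4.30 to 4.85 against 5.05 to 5.67.

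The siCtrl cultures after 9 h in EBSS, the 1 condition the sets share by label, are among the 14 arrays compared above and give no separate evidence. There, 12 of the 38 genes (31.6%) were at least 2-fold higher in the NF-kB set, against 1.04% of all genes with a cluster, and none was at least 2-fold lower, against 5.43% of genes. The median difference was 0.55 for the 38 genes and 0.12 for all genes. OASL read 9.40 against 6.87, a 5.77-fold difference, OAS1 7.20 against 5.42 (3.44-fold) and IFIT3 7.52 against 5.92 (3.03-fold). Outside the group, the chemokine CCL5, which NF-kB and interferon both induce, read 8.21 against 6.11, and RIGI, the gene for the sensor RIG-I, read 7.68 against 6.31. Other genes of the pathway were lower in the NF-kB set. Among them were the receptor kinases JAK1 (8.88 against 9.88) and JAK2 (4.59 against 5.94), the latter dim on most arrays. The ubiquitin ligase TRIM25 (9.14 against 10.00) and the kinase TBK1 (6.47 against 7.29) were lower too.

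**Figure D1:**
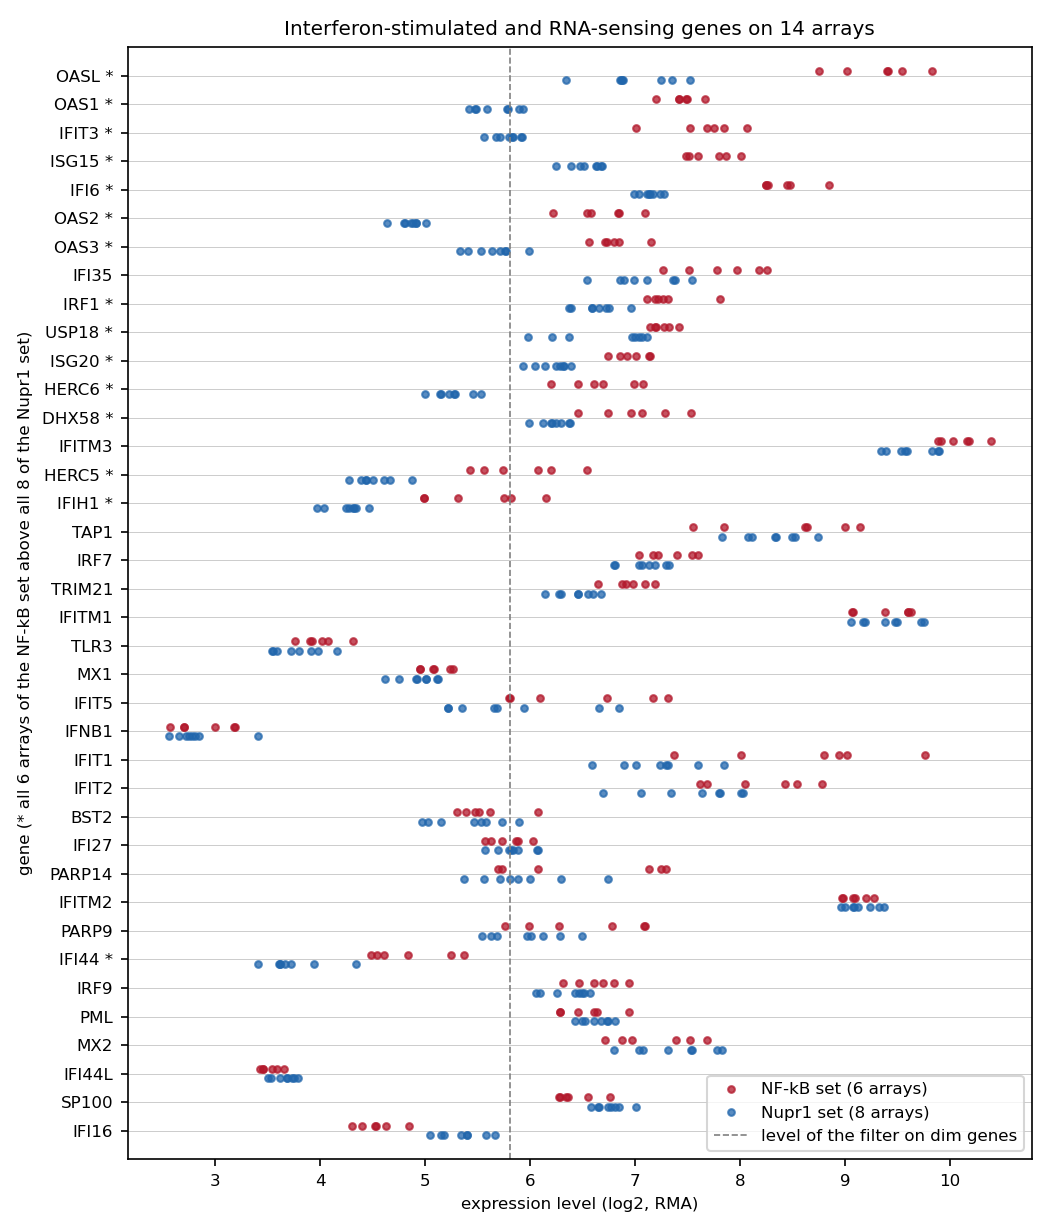
Deposited log2 level (horizontal axis) of each of the 38 genes with a cluster on the 6 NF-kB set arrays and the 8 Nupr1 set arrays, 1 point per array, with the dim limit of 5.805 drawn as a line. In 15 of the 38 genes, OASL, OAS1 and IFIT3 among them, all NF-kB set points lie to the right of all Nupr1 set points, while the points of MX2 and IFI27 overlap.

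After 9 h, starved cells were compared with cells in mock medium over 3 pairs, siCtrl, siRelA and siRelB. Differences are log2 EBSS minus mock from a limma model over all tested genes, with the standard error (SE) of the fit, and a gene is called at a Benjamini-Hochberg adjusted p of 0.05 over all 11026 genes. Of the 28 tested genes 18 were called, 10 higher and 8 lower in EBSS. This was so broad a response that 22.6% of all tested genes were called higher and 29.3% lower (51.9% in all), and the median over the 28 genes was 0.14 against 0.05 over all genes.

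The IFIT family, which binds foreign or uncapped RNA and blocks its translation, fell in all 4 tested members. IFIT1 read 7.37, 8.80 and 8.01 in EBSS with siCtrl, siRelA and siRelB, against 9.02, 9.76 and 8.94 in mock medium. Each pair fell, and the difference was -1.18 ± 0.15 (SE, 3 pairs, limma adjusted p = 2.19e-06). IFIT5 read 6.10, 5.80 and 5.81 against 7.31, 6.73 and 7.17, a difference of -1.17 ± 0.13 (limma adjusted p = 6.72e-07). Its siRelA array in EBSS lay just under the dim limit. IFIT2 read 7.69, 8.05 and 7.62 against 8.54, 8.78 and 8.43, a difference of -0.80 ± 0.12 (limma adjusted p = 2.06e-05). IFIT3 differed by less, at -0.48 ± 0.12 (limma adjusted p = 0.00235). For all 4 genes the EBSS array was below the mock array in every pair.

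PARP14 and PARP9, ADP-ribosyltransferase family members that interferon induces, fell as well. PARP14 read 6.08, 5.70 and 5.73 in EBSS against 7.30, 7.25 and 7.13 in mock medium, with no overlap. Its fitted difference was -1.39 ± 0.13 (limma adjusted p = 4.09e-08), larger in size than that of any other tested gene of the group. The siRelA and siRelB arrays in EBSS lay under the dim limit for PARP14, so the size of this fall is poorly measured. PARP9 differed by -0.98 ± 0.12 (limma adjusted p = 1.04e-06), and its siCtrl array in EBSS, at 5.76, lay just under the limit. HERC6 (-0.44 ± 0.11) and MX2 (-0.40 ± 0.11) fell by less. Fitted without the filter, the dim sensor IFIH1 was also lower, at 4.99, 5.31 and 4.99 against 5.75, 6.15 and 5.82, a difference of -0.81 ± 0.11 (limma adjusted p = 2.26e-05), and so were IFI44 at -0.61, HERC5 at -0.47 and OAS2 at -0.30.

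The genes that rose in EBSS did so by less. OASL read 9.40, 9.83 and 9.54 in EBSS against 8.75, 9.02 and 9.41 in mock medium, a difference of 0.53 ± 0.13 (limma adjusted p = 0.00184), and the siRelB pair rose by 0.13 only. IFITM1 rose by 0.43 ± 0.10 (limma adjusted p = 0.000941) and IFITM3 by 0.30 ± 0.09. TAP1, PML, the scaffold of nuclear bodies, and IRF7, the interferon-inducing factor, rose by 0.39, 0.38 and 0.37. DHX58 and ISG15 both rose by 0.36, and IRF9 and IFI35 by 0.29, but IFI35 did not rise in the siRelB pair (-0.08). CDKN2A, which this line is known to lack, was also called higher, by 0.36 ± 0.11 (limma adjusted p = 0.0113). A call of this size therefore need not reflect a change in expression.

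**Figure D2:**
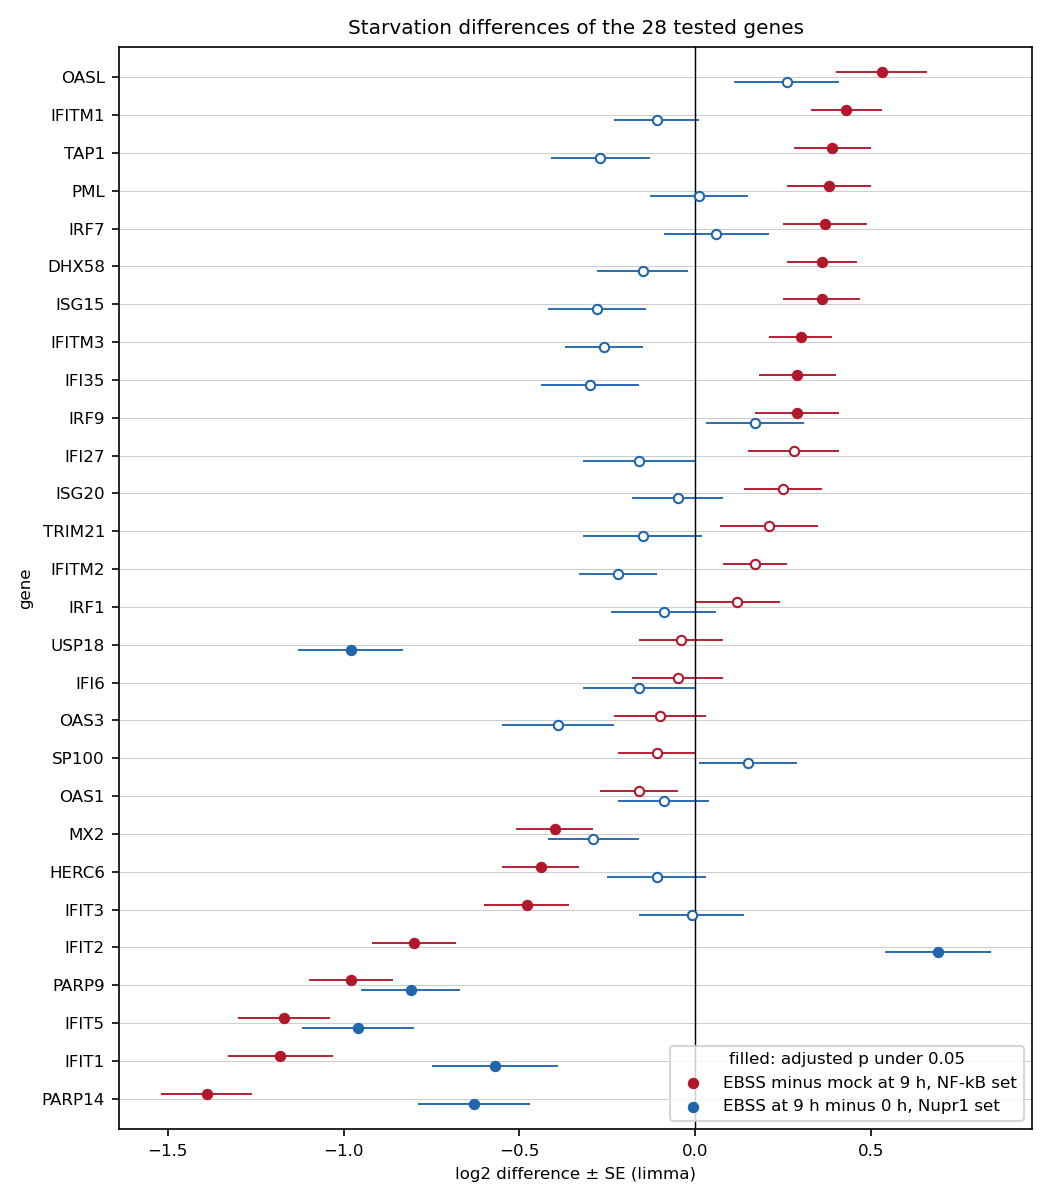
Log2 difference EBSS minus mock at 9 h (horizontal axis) for the 28 tested genes, as fitted, beside the difference EBSS at 9 h minus 0 h in the Nupr1 set. Bars are the SE and filled points are called. PARP14, IFIT1, IFIT5 and PARP9 are called lower in both, IFIT2 lies at -0.80 against mock medium and at 0.69 against 0 h, and OASL lies highest against mock medium at 0.53.

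Without the siRelA array in EBSS, or without the siRelA array in mock medium, the count fell from 18 to 11 (4 higher and 7 lower). PARP14, IFIT1, IFIT5, PARP9, IFIT2, OASL and IFITM1 were called in every fit with 1 array left out. The calls of IFITM3, IRF7, ISG15, MX2, PML, IFI35 and IRF9 were lost when either siRelA array was left out. Those of DHX58, TAP1, IFI35 and IRF9 were lost when either siCtrl array of the NF-kB set was left out, those of IFIT3, HERC6, IRF7 and IRF9 when either siRelB array was, and that of ISG15 without the siRelB array in EBSS. Median centring of the arrays ended the calls of IFITM3, IFI35 and IRF9. Longer genes had lower differences, with a Spearman correlation of -0.42 between genomic span and difference over the 28 genes and -0.42 over all tested genes that had a span. With that trend removed, HERC6, MX2, IFI35, IFITM3, IRF7, IRF9 and ISG15 were no longer called.

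The regulators upstream of the group were examined in lists that hold none of the 39 genes. In EBSS against mock medium 22.6% of all tested genes were called higher and 29.3% lower, the background for each list here. Of 16 tested sensors and adaptors, 3 rose and 4 fell. The ones that fell were the kinase TBK1 (-1.34 ± 0.13), EIF2AK2, which encodes the double-stranded RNA kinase PKR (-1.31 ± 0.10), CGAS (-0.82 ± 0.10) and RIGI (-0.72 ± 0.14), and the ones that rose were IRF3 (0.45), TLR9 (0.39) and UNC93B1 (0.33). Of 16 tested genes of interferons, receptors and JAK-STAT signalling, 6 rose and 4 fell. The receptor chains IFNGR2 (0.76 ± 0.11) and IFNAR1 (-0.72 ± 0.10) differed most. The ligand gene IFNL3 was among those that rose, by 0.42 ± 0.12 (limma adjusted p = 0.00525). Of 19 other interferon-stimulated genes, 4 rose and 6 fell, led by SAMHD1, a dNTP hydrolase that restricts viruses, at -1.24 ± 0.10. Antigen presentation genes besides TAP1 had 2 of 10 lower, the aminopeptidases ERAP2 (-0.98 ± 0.12) and ERAP1 (-0.52 ± 0.11), and none higher.

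In the Nupr1 set, each time in EBSS was compared with 0 h over the siCtrl and siNupr1 pairs. At 3 h 4 of the 28 genes were called, 2 higher and 2 lower, against 3.27% and 9.07% of all genes (12.3% in all). At 6 h 5 were called, 2 higher and 3 lower (7.65% and 15.7% of all genes, 23.4% in all), and at 9 h 6 were called, 1 higher and 5 lower (9.19% and 15.1%, 24.3% in all). These shares of the group are close to the background, and the medians over the 28 genes were 0.02, -0.01 and -0.15, against -0.03, -0.01 and -0.04 over all genes.

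IFIT5 fell at each time. It read 6.85 at 0 h and 5.69, 5.22 and 5.66 at 3, 6 and 9 h with siCtrl, and 6.66 at 0 h and 5.22, 5.35 and 5.94 with siNupr1. The differences from 0 h were -1.30, -1.48 and -0.96 (SE 0.16 at 9 h, limma adjusted p = 0.000267 there), and every starved array was below both 0 h arrays. Of the 6 starved arrays 5 were under the dim limit of 5.805, where the size of a fall is poorly measured. IFIT1 fell by 0.65, 0.77 and 0.57, mostly through siCtrl, where it read 7.85 at 0 h and then 6.90, 6.59 and 7.01. With siNupr1 it read 7.60 and then 7.24, 7.31 and 7.30.

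IFIT2 went the other way from 0 h. It read 7.06 at 0 h and 7.80, 8.03 and 7.34 with siCtrl, and 6.70 and then 7.64, 8.01 and 7.81 with siNupr1. The differences were 0.84, 1.13 and 0.69 (limma adjusted p = 0.00209 at 9 h), and all 6 starved arrays were above both 0 h arrays. So IFIT2 was lower in EBSS than in mock medium at 9 h in the NF-kB set and higher than at 0 h in the Nupr1 set. OASL rose at 3 h (0.51) and 6 h (0.77), and at 9 h it read 6.87 with siCtrl and 6.86 with siNupr1 and was not called.

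USP18 fell late. With siCtrl it read 7.04, 7.07, 6.37 and 5.98 in order of time, and with siNupr1 it read 6.97 to 7.11 through 6 h and 6.21 after 9 h. Only the 9 h difference, -0.98 ± 0.15, was called (limma adjusted p = 7.17e-05). PARP9 fell at 6 h (-0.57) and 9 h (-0.81), and PARP14 at 9 h (-0.63). PARP9 lay under the dim limit on both 9 h arrays and on the siCtrl array at 6 h. PARP14 did so with siNupr1 at 0 h and 9 h, so these sizes are poorly measured.

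**Figure D3:**
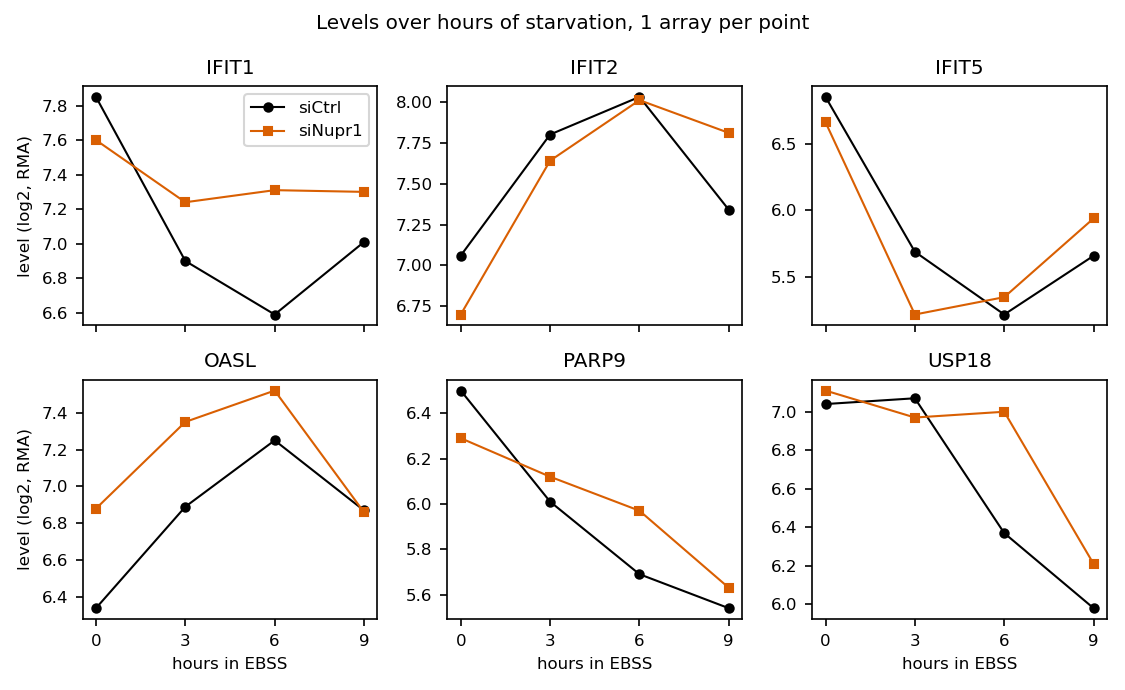
Log2 level (vertical axis) against hours in EBSS for IFIT1, IFIT2, IFIT5, OASL, PARP9 and USP18 in the Nupr1 set, with siCtrl and siNupr1 drawn as separate lines of 1 array per point. IFIT5 is below its 0 h level at 3, 6 and 9 h, IFIT2 is above it, and USP18 drops at 9 h.

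Leaving out 1 array changed these counts. At 3 h the count was 2 without the siCtrl 0 h, siCtrl 3 h or siNupr1 3 h array, when IFIT1 and OASL were not called. Quantile normalization ended the IFIT1 calls at 3 h and 9 h, array weights or removal of the span trend the IFIT1 call at 9 h, and median centring or no filter the OASL call at 3 h. At 6 h it was 3 without the siCtrl 0 h or siCtrl 6 h array, when IFIT1 and PARP9 were not called. At 9 h IFIT1 was not called without the siCtrl 0 h, siCtrl 9 h or siNupr1 9 h array, PARP14 without the siCtrl 0 h or 9 h array, and IFIT2 without the siNupr1 0 h or 9 h array.

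Of the other interferon-stimulated genes, 9 of 19 fell and none rose from 0 to 9 h, against 15.1% of all genes called lower and 9.19% called higher. SAMHD1 was among those that fell, at -0.89 ± 0.12.

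The starvation difference itself was compared between the sets, as EBSS minus mock at 9 h in the NF-kB set minus EBSS at 9 h minus 0 h in the Nupr1 set. The comparison arrays differ in time and medium between the sets, so the set and the choice of comparison array cannot be told apart. Here 10 of the 28 genes were called, 8 higher (28.6%, against 8.11% of all genes) and 2 lower (7.1%, against 16.4%; 24.5% of all genes either way), and the median was 0.28 against 0.08. The lower were IFIT2, at -1.49 ± 0.19 (limma adjusted p = 1.67e-05), and PARP14, at -0.75 ± 0.20. USP18 led the higher at 0.94 ± 0.19 (limma adjusted p = 0.00122), followed by TAP1, ISG15, IFI35, IFITM3, IFITM1, DHX58 and IFITM2. IFIT2 and USP18 were called in every fit with 1 array left out, and the count was 5 without the siNupr1 0 h array. PARP14 and TAP1 were lost without the siNupr1 array at 0 h or 9 h, IFITM3 without that at 9 h, ISG15 without the siCtrl array at 9 h of the Nupr1 set, and IFITM1 without the siRelA array in EBSS. IFI35 and DHX58 were lost without any 1 of the siCtrl and siRelA arrays of the NF-kB set, and likewise without the Nupr1 set's siCtrl array at 9 h or its siNupr1 array at 0 h, and DHX58 also without the siCtrl 0 h array. IFITM2 was lost in 13 of the 14 such fits. With the span trend removed, IFIT2, PARP14, TAP1 and USP18 were still called and the other 6 were not. Median centring ended the calls of DHX58, IFI35, IFITM1 and IFITM2 and gave 4 higher and 4 lower. Array weights ended the calls of the same 4 genes.

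With siNupr1 against siCtrl over the 4 times, 6 of the 28 genes were called, 4 higher and 2 lower, against 9.86% and 8.58% of all tested genes. MX2 read 7.83, 7.78, 7.54 and 7.53 at 0, 3, 6 and 9 h with siNupr1 and 7.08, 7.31, 7.04 and 6.80 with siCtrl. It was higher at every time, with no overlap between the siRNAs, and the difference was 0.61 ± 0.09 (4 pairs, limma adjusted p = 0.000211). IFI35, which binds other interferon-induced proteins, read 7.38, 7.54, 7.36 and 7.11 against 6.86, 6.99, 6.90 and 6.54, a difference of 0.52 ± 0.10 (limma adjusted p = 0.00111).

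IFITM1 (0.35 ± 0.08) and IFITM3 (0.33 ± 0.08) also rose, and neither was called without the siCtrl or siNupr1 array at 3 h. PARP14 read 5.71, 5.56, 5.89 and 5.37 with siNupr1 against 6.74, 6.00, 6.30 and 5.81 with siCtrl. The difference was -0.58 ± 0.11 (limma adjusted p = 0.0013). With siNupr1 only the 6 h array lay above the dim limit, so the size of this fall is poorly measured. TAP1 read 8.34, 8.11, 8.08 and 7.83 against 8.52, 8.33, 8.74 and 8.50, a difference of -0.43 ± 0.10 (limma adjusted p = 0.00432). OASL had a difference of 0.31 ± 0.11 (limma adjusted p = 0.0504) and was not called, nor was ISG15. OAS1, IFIT3 and OAS3 were not called either, but lay above the dim limit on only 2, 4 and 1 of the 8 Nupr1 set arrays. HERC6, also not called, lay under the limit on all 8, at 5.00 to 5.53. OAS1, IFIT3, OAS3 and HERC6 all averaged under the limit over the Nupr1 set, so they passed the filter only through their NF-kB set levels. They were still counted among the tested genes here and in the comparisons of times in EBSS with 0 h. Fitted without the filter, BST2, the dim virus tether tetherin, was higher with siNupr1 by 0.50 ± 0.12, at 5.47 to 5.90 against 4.97 to 5.53.

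No change of the siNupr1 difference with hours in EBSS was called by limma for any of the 28 genes (6 at an unadjusted p under 0.05), nor for any of the 11026 genes (0%). The lowest p belonged to IFIT2, with a slope of 0.09 ± 0.02 per hour (limma adjusted p = 0.114), TRIM21, an antibody receptor and ubiquitin ligase, at -0.09 ± 0.03, and TAP1 at -0.06 ± 0.02, and none of these passed.

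The siRelA and siRelB comparisons below share the siCtrl arrays. With siRelA against siCtrl over both media, 3 of the 28 genes were called, 2 higher and 1 lower, against 10.1% and 11.4% of all tested genes. TAP1 read 7.85 in EBSS and 7.55 in mock medium with siRelA, against 9.14 and 8.62 with siCtrl, a difference of -1.18 ± 0.14 (limma adjusted p = 6.71e-06). Both siRelA arrays were below both siCtrl arrays, and the siRelB arrays, at 9.00 and 8.64, were near siCtrl. PSMB9, an immunoproteasome subunit, fell as well (-0.50 ± 0.16).

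IFIT1 rose with siRelA, from 7.37 to 8.80 in EBSS and from 9.02 to 9.76 in mock medium, a difference of 1.09 ± 0.18 (limma adjusted p = 0.000295). It rose in both media, but across media the levels overlapped, at 8.80 with siRelA in EBSS and 9.02 with siCtrl in mock medium. HERC6 rose by 0.43 ± 0.14 (limma adjusted p = 0.0294), a call lost without any 1 of the 4 siCtrl and siRelA arrays. Fitted without the filter, the dim genes HERC5 (0.73 ± 0.16) and OAS2 (0.57 ± 0.14) were higher too. OASL (0.35 ± 0.15) and IFIT5 (-0.45 ± 0.16) were not called, and the median over the 28 genes was 0.13 against 0.01.

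With siRelB against siCtrl, 3 of the 28 genes were called, all higher, against 7.58% of all genes called higher and 8.55% lower. DHX58 read 7.53 in EBSS and 7.29 in mock medium against 6.96 and 6.46, a difference of 0.70 ± 0.13 (limma adjusted p = 0.000761), and both siRelB arrays were above both siCtrl arrays. MX2 read 7.39 and 7.69 against 6.71 and 6.97, a difference of 0.70 ± 0.13 (limma adjusted p = 0.000991), likewise with no overlap. IFI35 read 8.18 and 8.26 against 7.78 and 7.27, a difference of 0.70 ± 0.14 (limma adjusted p = 0.0014), and it was not called when the siCtrl or the siRelB mock array was left out. The count was 5 without the siRelB array in EBSS, and likewise without the 0 h or 9 h array of siCtrl or of siNupr1 in the Nupr1 set. For siRelA the count was 5 without the siCtrl or siNupr1 array at 9 h in the Nupr1 set.

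Set directly against each other, siRelB minus siRelA called 4 of the 28 genes, 3 higher and 1 lower, against 5.46% and 4.61% of all genes. The differences were 1.11 ± 0.14 for TAP1 (limma adjusted p = 3.36e-05), 0.50 for DHX58, 0.48 for IFI35 and -0.80 for IFIT1. TAP1 was called in every fit with 1 array left out. DHX58 was lost without any 1 of the 4 siRelA and siRelB arrays, IFI35 without any 1 of the siRelA arrays and the siRelB mock array, or with median centring or no filter, and IFIT1 without the siRelA EBSS or the siRelB mock array. The count was 1 without the siRelA EBSS or the siRelB mock array and 2 without the siRelA mock array.

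**Figure D4:**
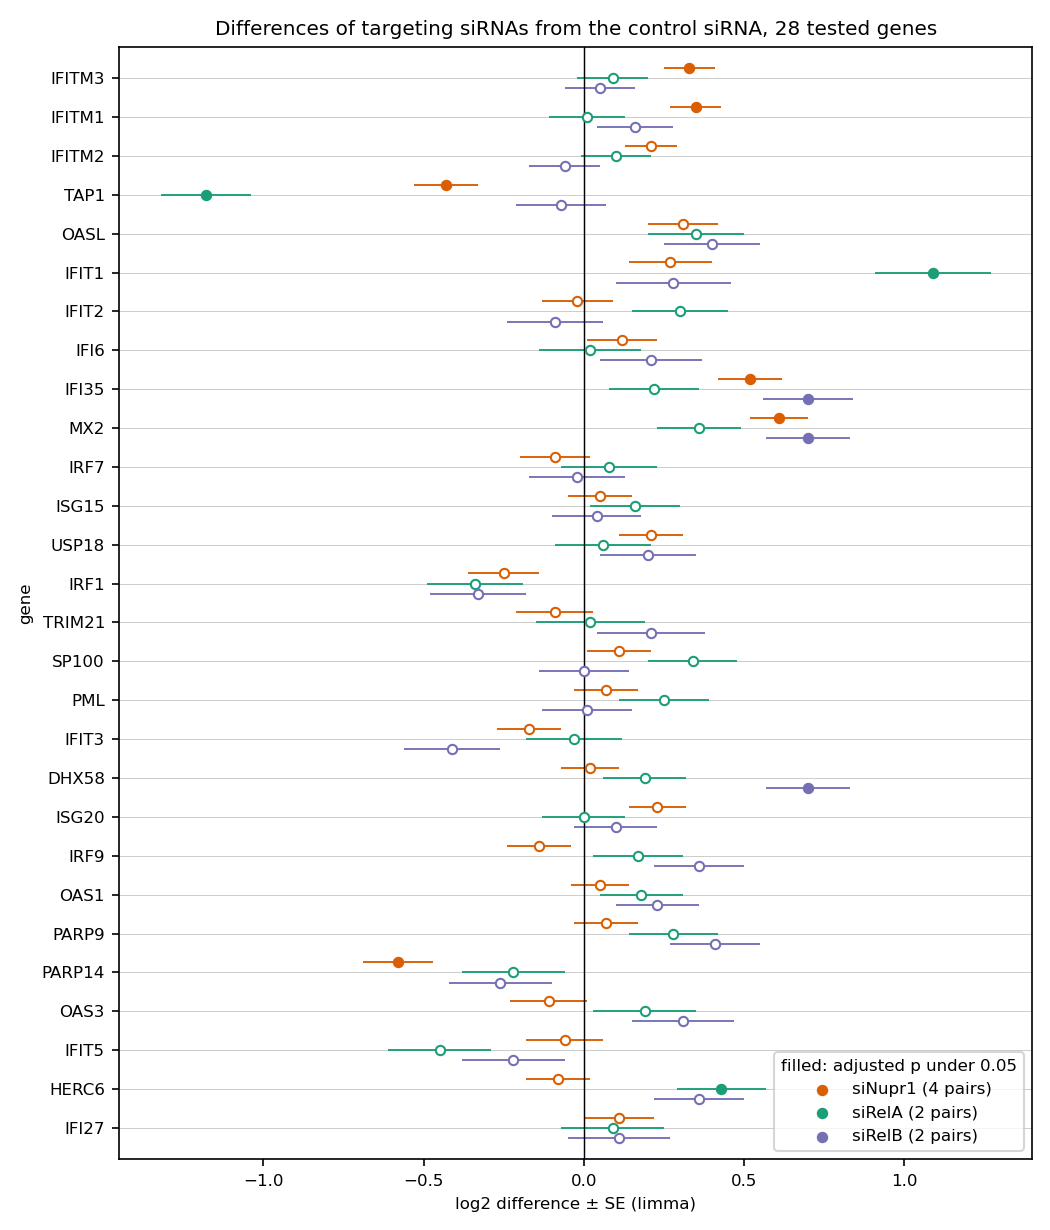
Log2 difference from siCtrl (horizontal axis) for the 28 tested genes under siNupr1, siRelA and siRelB, with the SE of the fit. MX2 and IFI35 lie at 0.61 and 0.52 with siNupr1 and at 0.70 and 0.70 with siRelB, and TAP1 lies at -1.18 with siRelA and at -0.43 with siNupr1.

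No change of the siRelA difference with the medium was called among the 28 genes in limma's interaction test (0 at an unadjusted p under 0.05, and 0.0363% of all genes called). The siRelB difference gave 0 calls as well (4 of 28 at an unadjusted p under 0.05, and 0% of all genes). IFI6 had the lowest p of the 28, with a siRelB difference in EBSS minus mock medium of -0.78 ± 0.25 (limma adjusted p = 1), followed by IRF1 at -0.74 ± 0.26 and IFI35 at -0.59 ± 0.25. For siRelA the lowest p belonged to IFIT1 (0.69 ± 0.33), IRF1 (-0.52 ± 0.26) and TRIM21 (-0.48 ± 0.33), and none of these passed. Each value here is 1 array and the spread comes from the Nupr1 set, with 3 residual degrees of freedom, so the absence of calls does not show equal differences in both media.

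The kinase TBK1, which phosphorylates IRF3, was lower with each siRNA, at -1.26 ± 0.15 with siRelA, -0.75 ± 0.15 with siRelB and -0.54 ± 0.11 with siNupr1. For contrast, inflammatory NF-kB target genes outside the interferon lists fell with each siRNA, 5 of 7 tested with siNupr1, 4 with siRelA and 5 with siRelB. None rose. Over all tested genes 8.58%, 11.4% and 8.55% were called lower in the same order, and 9.86%, 10.1% and 7.58% higher. The chemokine CXCL8 differed by -0.95 ± 0.15, -1.32 ± 0.22 and -0.97 ± 0.22 in that order. RELB is itself in that list and is the target of siRelB.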

How the data were processed

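The labels state that 200 ng of total RNA per sample was labelled for whole-transcript arrays. The authors' deposited values are log2 levels, made with RMA per the submitters' processing notes, which also name limma, with no version stated there. Clusters were named through the array annotation (19310 with 1 symbol, 1752 with several, 7807 not listed), and the brightest cluster per gene was kept. Genes whose mean level over the 14 arrays lay in the lowest 40% (under 5.805) were left out.

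A joint limma model (limma 3.58.1, R 4.3.3; intensity trend, 9 coefficients, 5 residual and 19.6 total degrees of freedom) was fitted to all 11026 genes, with Benjamini-Hochberg adjustment; separate fits gave the interactions. The joint model was tested on simulated data. Promoter sequences came from RefSeq, GRCh38.p14. The text names the siRNA targets, every called gene of the group, dim genes by level, the 3 genes with the smallest p where none passed, and up to 4 of the most changed genes of each other list; others were named after their values were seen. The genes, the lists and the comparisons were chosen with earlier results of these data known.

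Alternatives were other filters, scaling, weights, cluster averaging, each set alone, removal of a span trend, and leaving out each array.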

Additional observations from a re-analysis of the deposited data

Results flagged for a closer look

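The starvation difference differed between the sets, by the limma test of that difference, for 10 genes of the group. The values, NF-kB set minus Nupr1 set in log2, were -1.49 for IFIT2 and -0.75 for PARP14. They were 0.94 for USP18, 0.66 for TAP1, 0.64 for ISG15, 0.59 for IFI35, 0.56 for IFITM3, 0.54 for IFITM1, 0.50 for DHX58 and 0.38 for IFITM2. Only IFIT2 and USP18 kept their call under every alternative tried. PARP14 and TAP1 also kept it with the span trend removed, and the others did not. The sets used different comparison arrays, mock medium at 9 h in the NF-kB set and 0 h in the Nupr1 set, so set and comparison array cannot be told apart.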

How the results depend on the processing

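The 59 calls named were tested again under 9 alternative settings and with each of the 14 arrays left out, giving 1334 values: 1197 kept the call, 137 lost it and 0 reversed, and 26 calls were never lost. Removal of the span trend lost 14 calls, median centring 9, no filter 6, array weights 5, quantile normalization 2 and no intensity trend 1. Counts of called genes moved by over 1.5 times in these cases: siRelA gave 5 with no filter and 6 after quantile normalization, against 3. With the lowest 50% of genes left out, 6 h gave 3 and 9 h gave 3, but only 22 genes of the group were then tested. siRelB gave 5 after quantile normalization, 5 with no intensity trend, 7 with array weights and 5 with the span trend removed, against 3. The difference between the sets gave 6 with array weights, against 10. Smaller moves included 8 for that difference after median centring and 7 with the span trend removed, and, for EBSS against mock, 15 and 12 under the same settings, against 18.

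With 1 array left out, the counts ran from 11 to 19 for EBSS against mock, 2 to 5 at 3 h, 3 to 6 at 6 h, 4 to 6 at 9 h, 4 to 8 for siNupr1, 2 to 5 for siRelA, 2 to 5 for siRelB, 1 to 5 for siRelB against siRelA and 5 to 10 for the difference between the sets, and stayed at 0 for the slope and the medium interactions, which could not be fitted without an array of the NF-kB set. The set-against-set counts, under alternatives chosen after seeing the data, were 15 of 38 as given, 14 after quantile normalization, 13 after median centring and 21 with arrays in EBSS alone, where 21.1% of genes also passed. No pairing by replicate was possible because the labels give no replicate numbers and each group has 1 array, so no replicate block could be fitted. The model instead holds terms for siRNA and for time or medium. Media and times are thus compared within siRNA, and siRNAs within time or medium.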
